A study of Mus musculus with 20 samples.

Results

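The 10 genes described here belong to the CREB3 family of membrane-bound transcription factors and to the unfolded protein response (UPR). They are *Creb3*, *Creb3l2*, *Creb3l3*, *Atf6*, *Atf4*, *Xbp1*, *Hspa5*, *Ddit3*, *Herpud1* and *Dnajb9*, and they were taken by name from the 19661 mouse genes that have a probe set of their own on the array. Each of the 10 has 1 such probe set. Whole liver RNA of 20 mice was hybridized, 1 mouse per array, and the mice were, by their labels, untreated, 8 weeks old and bred from a mix of strains (129Pas x C57Bl/J). The groups compared held 5 mice each, namely *Crem* KO mice (Crem-/-) killed 12 h after light onset (12 h, 7 pm), WT mice at 12 h, *Crem* KO mice killed at light onset (0 h, 7 am) and WT mice at 0 h. CREM is a transcription factor that binds cAMP-responsive elements, and the KO mice lack it in every tissue. The design asks what 12 h of light phase and what the absence of CREM change in the liver. In whole tissue, fewer cells of a type and less RNA per cell cannot be told apart.

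Secreted proteins are folded in the endoplasmic reticulum (ER), and hepatocytes secrete most plasma proteins. When unfolded proteins accumulate, the ER membrane sensors IRE1, PERK and ATF6 start the UPR. IRE1 splices the *Xbp1* mRNA, PERK phosphorylates eIF2α so that ATF4 is translated, and ATF6 is cut in the Golgi by the site-1 and site-2 proteases, as are the CREB3 family members. XBP1 and ATF6 activate genes of chaperones and of ER-associated degradation through the ER stress response element (ERSE), and ATF4 activates amino acid genes and *Ddit3*. An array value gives the total mRNA of a gene, so that splicing of *Xbp1*, translation of ATF4 and cleavage of ATF6 or CREB3 proteins are not read.

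Values are log2 expression as deposited, and levels of different genes were not compared. The median of an array lay between 7.07 and 7.17 at 12 h and between 7.18 and 7.24 at 0 h. Every 12 h median thus lay below every 0 h median, and the main fit did not centre the arrays. All 12 h arrays form batch 5 and the 0 h arrays form batches 1 to 4, each with both genotypes, so that time and batch cannot be told apart, whereas genotypes can be compared within batches. The probe set of *Crem* was lower in KO livers at both times in the mean (7.60 ± 0.17 in KO and 7.97 ± 0.06 in WT livers at 12 h, 7.85 ± 0.30 in KO and 8.32 ± 0.17 in WT livers at 0 h, SD, n = 5 each). Over both times the difference of -0.42 (SE 0.08) had an adjusted p of 0.135 in limma, and which part of the gene its probes cover was not examined. At 12 h the genotypes did not overlap, and at 0 h the liver labelled KO mouse 1 (8.17) lay above the lowest WT liver (8.11). The study's list of animals numbers its pre-pubertal mice apart from its adults, and there this number belongs to a WT mouse. The number is absent from its adult KO mice, some of which have no liver array here. The label gives 8 weeks for this mouse too, so that its number is in doubt, and whether the genotype is right was not tested. The liver was kept under its label. Without it the changes between 0 h and 12 h in KO livers were -0.46 for *Hspa5*, -0.50 for *Ddit3*, -0.35 for *Atf4* and 0.52 for *Herpud1*, and the same 4 members passed. For KO against WT, 0 members passed without this liver at 0 h or over both times. Hepatocyte markers averaged between 13.49 and 13.68 in all 20 livers, and 9 of 10 of them were measured.

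Promoter windows of the RefSeq annotation (GRCm38.p6), from 250 bases before to 50 bases after a transcription start, were matched by symbol for 9 members (all but *Atf6*). They were searched on both strands for ERSE (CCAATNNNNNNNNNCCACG), ERSE-II (ATTGGNCCACG), the cAMP-responsive element CRE (TGACGTCA), a UPR element core (TGACGTGG) and an amino acid response core (TGATGNAA). The letters CCACG that end ERSE and ERSE-II also begin the UPR element core read on the opposite strand, so that these motifs can overlap. Of 32851 windows, 0.119% held ERSE, 0.0365% ERSE-II, 1.79% CRE, 0.676% the UPR element core and 3.97% the amino acid response core. Among the members, *Hspa5* held ERSE and *Herpud1* held ERSE-II and the amino acid response core, and in the windows of the other 7 members these letters were not found. The 250 bases before the start of both genes are shown because *Hspa5* and *Herpud1* changed in opposite directions in KO livers. Capitals mark the fixed letters of the motifs, and both genes lie on the plus strand.
Hspa5, chr2:34771840-34772089: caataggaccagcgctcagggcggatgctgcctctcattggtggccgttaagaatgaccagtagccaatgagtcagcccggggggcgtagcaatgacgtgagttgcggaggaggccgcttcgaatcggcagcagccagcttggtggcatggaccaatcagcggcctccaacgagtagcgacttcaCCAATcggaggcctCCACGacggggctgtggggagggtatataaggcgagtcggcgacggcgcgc
Herpud1, chr8:94386179-94386428: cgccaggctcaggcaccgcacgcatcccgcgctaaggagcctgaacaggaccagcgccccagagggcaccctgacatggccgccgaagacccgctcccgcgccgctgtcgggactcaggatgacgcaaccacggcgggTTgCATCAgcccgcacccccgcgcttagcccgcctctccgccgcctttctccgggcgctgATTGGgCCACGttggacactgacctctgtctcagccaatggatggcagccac
ERSE of *Hspa5* lies at -65 to -47 from the start, and ERSE-II of *Herpud1* at -52 to -42, where -1 is the base before the start.

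Between 0 h and 12 h, 3 members fell in livers of both genotypes: *Hspa5*, *Ddit3* and *Atf4*. *Herpud1* rose in KO livers. In KO livers 4 of the 10 members passed the threshold of an adjusted p under 0.05 (limma, Benjamini-Hochberg over all 25689 probe sets), 1 of them higher and 3 lower at 12 h, whereas 20.3% of all probe sets passed, 10.6% higher and 9.69% lower. In WT livers 3 of 10 passed, all 3 lower, whereas 27.8% of all probe sets passed and 14.3% were lower. The median log2 change of the members was -0.07 in KO and -0.16 in WT livers, and that of all probe sets was -0.02 in KO and -0.03 in WT livers. With each array centred on its median, the split over all probe sets moved to 3676 higher and 1603 lower in KO livers (2722 and 2489 without centring) and to 5294 higher and 1995 lower in WT livers (3462 and 3682 without centring).

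**Figure D1:**
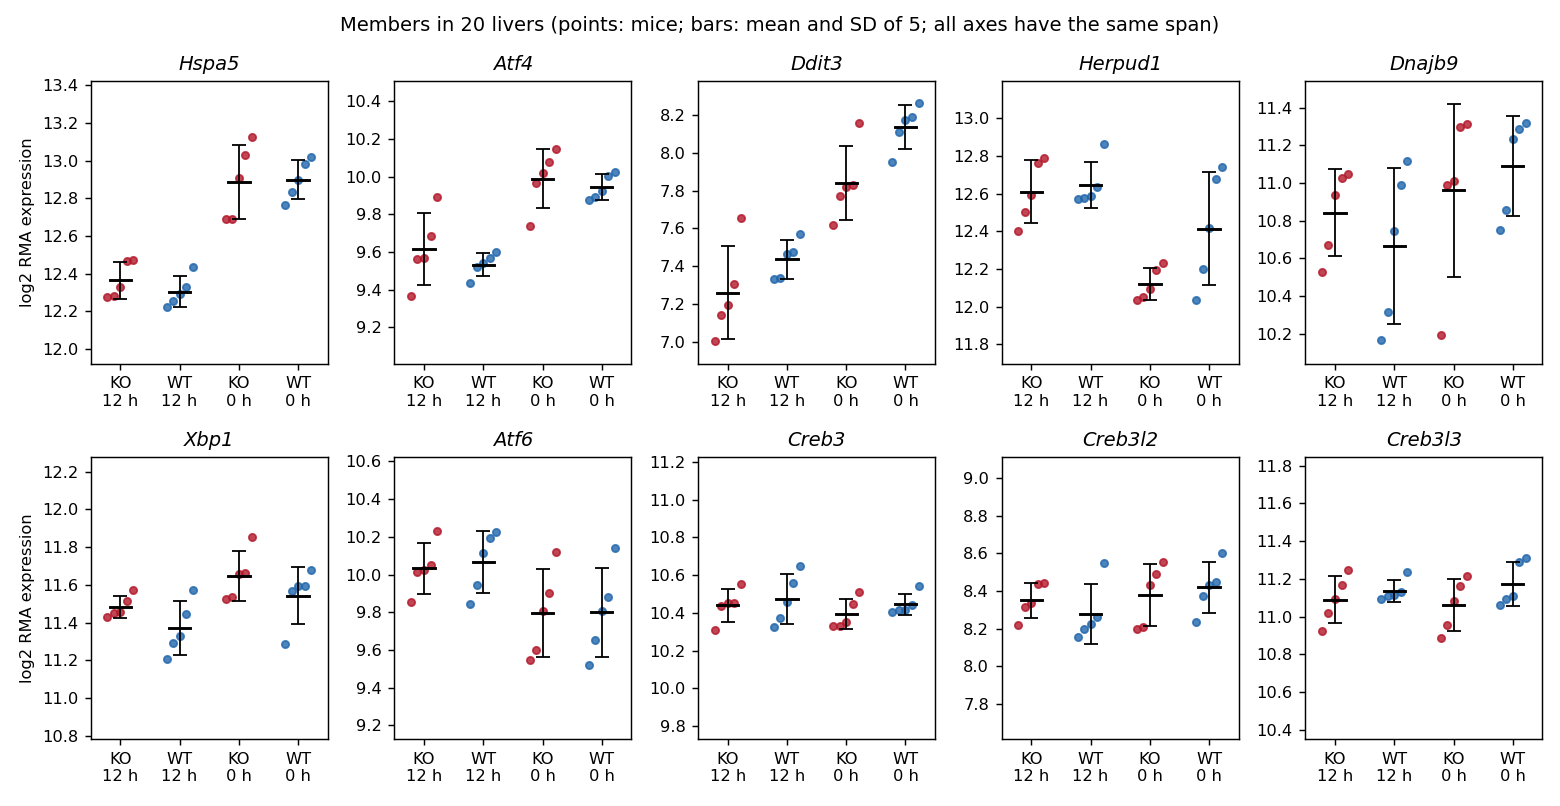
Log2 expression (vertical axes, which all have the same span and do not start at 0) of the 10 members in 20 livers, with KO mice in red and WT mice in blue. Points are mice, ordered by level within a group, and bars mark the group mean with 1 SD on either side (n = 5). For *Hspa5* every 12 h liver lies below every 0 h liver, and for *Creb3* the 4 groups overlap.

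*Hspa5* encodes BiP, the Hsp70 chaperone of the ER lumen, which also holds the UPR sensors inactive. At 12 h its log2 level was 12.28, 12.28, 12.47, 12.33 and 12.47 in KO livers, and 12.43, 12.33, 12.29, 12.22 and 12.25 in WT livers. At 0 h it was 13.03, 12.69, 13.12, 12.69 and 12.91 in KO livers, and 12.77, 12.90, 13.02, 12.83 and 12.98 in WT livers. The highest 12 h liver lay below the lowest 0 h liver in both genotypes. *Hspa5* fell by 0.52 (SE 0.08, adjusted p = 0.000107 in limma) in KO livers, to 69.6% of the 0 h level, and by 0.59 (SE 0.08, adjusted p = 2.36e-05) in WT livers, to 66.3%. The means of the 0 h batches, of 1 or 2 mice each, spanned 0.44 within KO and 0.22 within WT livers.

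*Dnajb9* encodes ERdj4, a DNAJ co-chaperone of BiP. At 12 h its level was 10.53, 10.67, 10.94, 11.03 and 11.05 in KO livers, and 11.12, 10.99, 10.31, 10.16 and 10.75 in WT livers. At 0 h it was 11.31, 11.30, 10.99, 10.19 and 11.01 in KO livers, and 11.24, 11.29, 10.86, 10.75 and 11.32 in WT livers. Mice of one group differed by up to 1.12, the widest spread of the members, and the 12 h and 0 h livers overlapped in both genotypes. Its changes were -0.12 (95% confidence interval -0.53 to 0.29, adjusted p = 0.725 in limma) in KO and -0.42 (-0.84 to -0.01, adjusted p = 0.116) in WT livers. The low KO liver at 0 h, 10.19, was that of mouse 144, without which the change in KO livers was -0.31 (adjusted p = 0.242). It was -0.03 without KO mouse 77 or 143 at 0 h, -0.04 without KO mouse 18 and -0.08 without KO mouse 55 at 12 h.

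*Herpud1* encodes HERP, a ubiquitin-like protein of the ER membrane that takes part in ER-associated degradation. At 12 h its level was 12.59, 12.76, 12.50, 12.79 and 12.40 in KO livers, and 12.57, 12.58, 12.64, 12.59 and 12.86 in WT livers. At 0 h it was 12.05, 12.04, 12.23, 12.09 and 12.19 in KO livers, and 12.04, 12.74, 12.42, 12.20 and 12.68 in WT livers. All 5 KO livers at 12 h lay above all 5 at 0 h, whereas the WT livers at 0 h were spread over 0.70 and overlapped those at 12 h. *Herpud1* rose by 0.49 (SE 0.11, adjusted p = 0.00315 in limma) in KO livers, 1.40-fold. In WT livers its change was 0.23 (95% confidence interval -0.003 to 0.47, adjusted p = 0.131), and the difference between the changes in KO and WT livers was 0.26 (SE 0.16, adjusted p = 0.793). Without WT mouse 146 at 0 h the change in WT livers was 0.14 (adjusted p = 0.362), and without WT mice 80 and 170 it was 0.12 (adjusted p = 0.519). The 0 h batch means spanned 0.19 within KO livers and 0.70 within WT livers.

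*Atf4* encodes the bZIP factor whose translation follows PERK activity. At 12 h its level was 9.37, 9.68, 9.57, 9.57 and 9.89 in KO livers, and 9.60, 9.43, 9.52, 9.54 and 9.57 in WT livers. At 0 h it was 10.15, 10.02, 10.08, 9.74 and 9.97 in KO livers, and 9.88, 9.92, 9.89, 10.03 and 10.004 in WT livers. The WT groups did not overlap, and in KO livers mouse 166 at 12 h (9.89) lay above mouse 144 at 0 h (9.74). *Atf4* fell by 0.37 (SE 0.09, adjusted p = 0.00321 in limma) in KO livers, to 77.2% of the 0 h level, and by 0.41 (SE 0.09, adjusted p = 0.00124) in WT livers, to 75.2%. Batch means at 0 h spanned 0.35 within KO and 0.13 within WT livers.

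*Ddit3* encodes CHOP, a bZIP factor that is induced by ATF4 and promotes apoptosis under lasting ER stress. At 12 h its level was 7.00, 7.19, 7.14, 7.31 and 7.65 in KO livers, and 7.48, 7.33, 7.34, 7.46 and 7.57 in WT livers. At 0 h it was 7.83, 7.82, 8.16, 7.77 and 7.62 in KO livers, and 8.11, 8.18, 8.26, 8.19 and 7.95 in WT livers. The WT groups did not overlap, and in KO livers mouse 166 at 12 h (7.65) lay just above mouse 76 at 0 h (7.62). *Ddit3* fell by 0.58 (SE 0.11, adjusted p = 0.000407 in limma) in KO livers, to 66.8% of the 0 h level, and by 0.70 (SE 0.11, adjusted p = 4.99e-05) in WT livers, to 61.4%. Its 0 h batch means spanned 0.54 within KO and 0.27 within WT livers.

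Groups of 12 h and 0 h livers did not overlap for 2 members in KO livers (*Hspa5* and *Herpud1*), against 16.4% of all probe sets, and for 3 in WT livers (*Hspa5*, *Atf4* and *Ddit3*), against 17.5%.

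*Xbp1* and *Atf6* encode the factors of the IRE1 and ATF6 arms, and neither passed. At 12 h *Xbp1* was 11.45, 11.52, 11.57, 11.45 and 11.43 in KO livers, and 11.57, 11.44, 11.33, 11.29 and 11.21 in WT livers. At 0 h it was 11.66, 11.54, 11.66, 11.85 and 11.52 in KO livers, and 11.28, 11.59, 11.57, 11.59 and 11.68 in WT livers. The groups overlapped in both genotypes, and the lowest WT liver at 0 h was that of mouse 146. The change of *Xbp1* was -0.16 (95% confidence interval -0.34 to 0.01, adjusted p = 0.186 in limma) in KO and -0.17 (-0.35 to -0.0003, adjusted p = 0.126) in WT livers. *Atf6* averaged 10.03 ± 0.13 in KO and 10.06 ± 0.16 in WT livers at 12 h, and 9.79 ± 0.23 in KO and 9.80 ± 0.24 in WT livers at 0 h (SD, n = 5 each). Its change of 0.24 (-0.004 to 0.48, adjusted p = 0.161) in KO and 0.26 (0.02 to 0.51, adjusted p = 0.097) in WT livers missed the threshold, and its 0 h batch means spanned 0.46 within KO and 0.55 within WT livers. Without WT mice 80 and 170 the change in WT livers was 0.16.

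The CREB3 family members differed little between 0 h and 12 h. *Creb3* encodes Luman, *Creb3l2* encodes BBF2H7, known for secretory pathway genes in cartilage, and *Creb3l3* encodes CREBH, a factor enriched in liver that acts on lipid and glucose genes in fasting. *Creb3* lay between 10.31 and 10.65 in all 20 livers, with a change of 0.05 (-0.10 to 0.19) in KO and 0.03 (-0.12 to 0.17) in WT livers (95% confidence intervals). *Creb3l2* lay between 8.16 and 8.60, with a change of -0.03 (-0.21 to 0.16) in KO and -0.14 (-0.33 to 0.05) in WT livers. For *Creb3l3*, which lay between 10.88 and 11.31, the change was 0.03 (-0.13 to 0.19) in KO and -0.04 (-0.20 to 0.13) in WT livers. None of these 3 genes had an adjusted p under 0.25 in limma, and these intervals leave room for changes of up to 0.33 on the log2 scale. The further relatives *Creb3l1* and *Creb3l4*, which are not members, had changes of -0.17 and 0.17 in KO livers (adjusted p = 0.275 and 0.165). In WT livers *Creb3l1* fell by 0.47 (adjusted p = 0.00186) while *Creb3l4* was at 0.06 (adjusted p = 0.644). Their group means, 6.61 to 7.11 and 6.13 to 6.30, are low on the scale of the arrays, whose medians lay between 7.07 and 7.24.

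**Figure D2:**
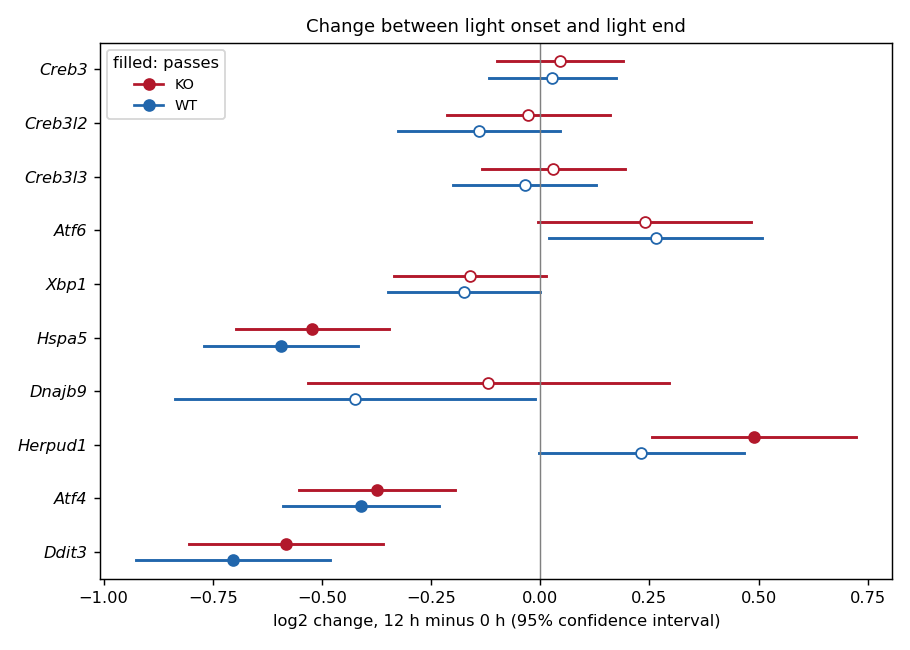
Log2 change between 12 h and 0 h (horizontal axis) of the 10 members in KO livers (red, upper line of each pair) and WT livers (blue), with 95% confidence intervals from limma. Filled points had an adjusted p under 0.05, which *Hspa5*, *Atf4* and *Ddit3* reached in both genotypes and *Herpud1* in KO livers, on the side of higher levels at 12 h.

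Genotype moved no member past the threshold. At 12 h 0 of 10 passed for KO against WT (0.0234% of all probe sets did), at 0 h 0 of 10 (0%), over both times 0 of 10 (0.0117%), and for the difference between the time changes 0 of 10 (0%), all with limma. Without adjustment, p was under 0.05 for 0 members at 12 h (3216 of all probe sets), 2 at 0 h (1148), 1 over both times (2537) and 0 for the difference between the time changes (1757). The member with the smallest p was *Ddit3*, whose level was 7.26 ± 0.25 in KO and 7.44 ± 0.10 in WT livers at 12 h, and 7.84 ± 0.20 in KO and 8.14 ± 0.12 in WT livers at 0 h (SD, n = 5 each). Its difference was -0.18 (SE 0.11, adjusted p = 0.522) at 12 h, -0.30 (SE 0.11, adjusted p = 0.987) at 0 h and -0.24 (SE 0.08, 95% confidence interval -0.40 to -0.08, adjusted p = 0.333) over both times. At 12 h the difference was -0.28 (adjusted p = 0.257) without KO mouse 166 and -0.11 (adjusted p = 0.719) without KO mouse 18. KO livers had the lower mean of *Ddit3* in each of the 5 batches, with differences of -0.28, -0.02, -0.45 and -0.34 in batches 1 to 4 and -0.18 in batch 5, while the groups overlapped at both times. The only KO liver of batch 2 was that labelled mouse 1. Over the alternatives the difference at 0 h ranged from -0.38 to -0.24.

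*Herpud1* was the other member with an unadjusted p under 0.05 at 0 h, where it averaged 12.12 ± 0.09 in KO and 12.41 ± 0.30 in WT livers (SD, n = 5 each), a difference of -0.29 (SE 0.11, adjusted p = 0.987 in limma). Within the 0 h batches the difference was 0.01, -0.51, -0.22 and -0.48, and at 12 h, in batch 5, it was -0.04. The interval of the genotype difference was widest for *Dnajb9* (-0.24 to 0.59 at 12 h and -0.54 to 0.28 at 0 h) and narrowest for *Creb3* (-0.18 to 0.11 at 12 h and -0.20 to 0.09 at 0 h).

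**Figure D3:**
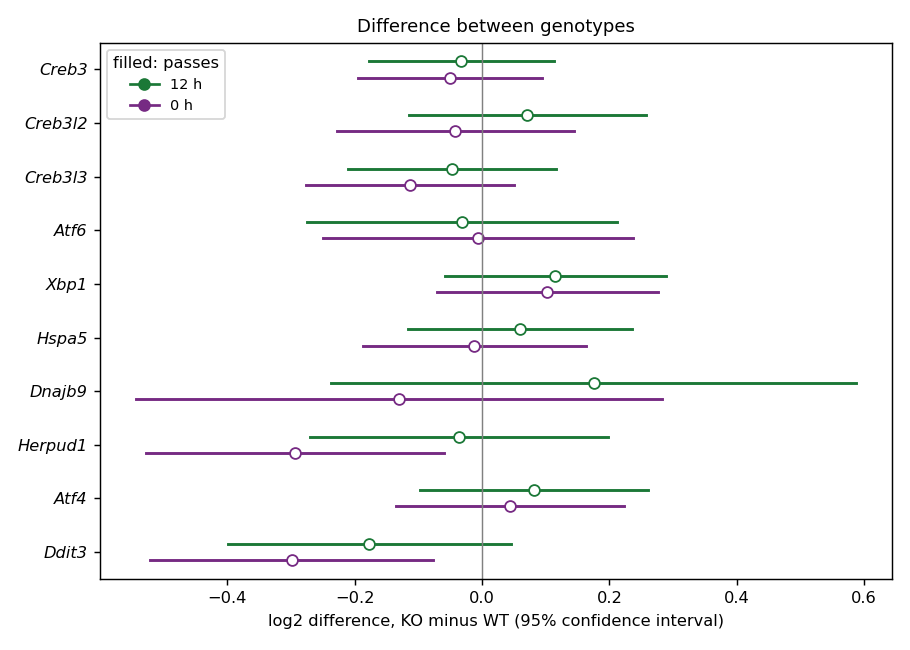
Log2 difference between KO and WT livers (horizontal axis) of the 10 members at 12 h (green, upper line of each pair) and 0 h (purple), with 95% confidence intervals from limma. No point is filled, since none had an adjusted p under 0.05, and *Ddit3* and *Herpud1* at 0 h have intervals below 0.

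Genes that the UPR acts on were described by their counts, beside the shares of all 19661 genes that passed at 12 h against 0 h, which were 10.9% higher and 10.6% lower in KO livers and 14.0% higher and 14.7% lower in WT livers. Of 22 ER chaperones and folding enzymes, all measured, 14 fell and 1 rose in KO livers and 13 fell and 0 rose in WT livers at 12 h. The same 13 genes fell in both genotypes, 59.1% of the list, against 6.71% of the 19661 genes. They were *Calr*, *Creld2*, *Dnajb11*, *Ero1b*, *Hsp90b1*, *Hyou1*, *Manf*, *Pdia3*, *Pdia4*, *Pdia6*, *Ppib*, *Sdf2l1* and *Sil1*. All 22 chaperones had probe sets brighter than the median probe set. The shares of all genes, here and for the other lists, were not matched for level. The median log2 change of the list was -0.37 in KO and -0.29 in WT livers. Changes were largest for *Sdf2l1*, a BiP-associated protein of the ER lumen, with -0.83 (adjusted p = 0.00119 in limma) in KO and -0.98 (adjusted p = 0.000222) in WT livers. *Creld2*, a folding factor induced by ER stress, had -0.68 (adjusted p = 0.00743) in KO and -0.92 (adjusted p = 0.000537) in WT livers. *Manf*, a protein kept in the ER with BiP, had -0.60 (adjusted p = 0.000124) in KO and -0.78 (adjusted p = 5.65e-06) in WT livers. The 1 gene that rose in KO livers, named after its value was seen, was *Ero1a*, an oxidase that drives disulfide formation, with 0.34 (adjusted p = 0.025) in KO and 0.27 (adjusted p = 0.0629) in WT livers, and it no longer passed without any 1 of KO mice 77, 143 and 144 at 0 h or 109, 110 and 166 at 12 h. With quantile normalization 0 genes of the list rose in KO livers. In WT livers 1 gene of the list rose without WT mouse 78 or 147 at 0 h or 169 at 12 h. With each array centred on its median 2 rose in WT livers, and 1 rose there with an intensity trend or with only bright probe sets. Averaged over the 22 genes, livers lay between 10.88 and 11.02 (KO) and between 10.90 and 11.05 (WT) at 12 h, and between 11.13 and 11.46 (KO) and between 11.20 and 11.37 (WT) at 0 h, so that the times did not overlap.

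Of 16 measured genes of ER-associated degradation, 3 fell and 0 rose in KO livers and 3 fell and 1 rose in WT livers. The share that fell stands near that of all genes in WT livers (14.7%), and in KO livers it exceeds that of all genes (10.6%) by few genes. In each genotype 2 fell with each array centred on its median, and 4 fell with quantile normalization. The 3 of 16 that fell were the same in both genotypes, against 6.71% of all genes that fell in both. *Syvn1*, the ubiquitin ligase HRD1, had -0.71 (adjusted p = 7.34e-05 in limma) in KO and -0.84 (adjusted p = 9.86e-06) in WT livers. *Selenos*, a selenoprotein of the retrotranslocation complex, had -0.44 in KO and -0.59 in WT livers, and the derlin gene *Derl2* had -0.25 in KO and -0.27 in WT livers. The gene that rose in WT livers, named after its value was seen, was *Herpud2*, the paralog of *Herpud1*, with 0.31 (adjusted p = 0.0041), and it had 0.18 (adjusted p = 0.0954) in KO livers. Without WT mouse 167 at 12 h, 2 rose in WT livers.

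Of 21 measured genes of ER translocation and the vesicle coat, 3 rose and 3 fell in KO livers and 3 rose and 4 fell in WT livers, shares near those of all genes. Higher in both were *Sec31a* (0.51 in KO and 0.43 in WT livers) and *Sec24d* (0.32 in KO and 0.30 in WT livers), subunits of the COPII coat, and the receptor *Kdelr1* (0.26 in KO and 0.32 in WT livers), which returns chaperones to the ER. Lower in both were the signal peptidase genes *Sec11c* (-0.72 in KO and -0.70 in WT livers) and *Spcs2* (-0.40 in KO and -0.33 in WT livers). The number that fell in WT livers was 7 with quantile normalization or without WT mouse 146 at 0 h, and the number that fell in KO livers was 5 without KO mouse 144 at 0 h.

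Among 12 measured genes of sensors, proteases and eIF2α kinases, 2 rose and 0 fell in KO livers and 3 rose and 1 fell in WT livers. Without WT mouse 80 at 0 h, 1 fell in KO livers. *Mbtps1*, the site-1 protease, rose by 0.41 (adjusted p = 0.000173 in limma) in KO and by 0.50 (adjusted p = 1.66e-05) in WT livers. *Ppp1r15b*, a subunit that directs dephosphorylation of eIF2α, rose by 0.31 (adjusted p = 0.00363) in KO and by 0.29 (adjusted p = 0.00511) in WT livers. The sensor genes themselves did not pass, with *Ern1* (IRE1α) at 0.18 in KO and 0.02 in WT livers and *Eif2ak3* (PERK) at -0.04 in KO and -0.18 in WT livers.

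Of 23 measured targets of ATF4 and CHOP, 4 rose and 3 fell in KO livers, and 7 rose and 4 fell in WT livers, although 4 rose in WT livers without WT mouse 170 at 12 h and 2 rose in KO livers without KO mouse 77 at 0 h. The shares that fell were near those of all genes. With all arrays, the shares that rose were larger than those of all genes (10.9% in KO and 14.0% in WT livers), above all in WT livers. Higher in both were the bZIP gene *Cebpb* (0.43 in KO and 0.78 in WT livers), the amino acid transporter subunit *Slc3a2* (0.24 in KO and 0.33 in WT livers) and *Shmt2* of mitochondrial serine metabolism (0.33 in KO and 0.31 in WT livers). Lower in both were *Mthfd2* of mitochondrial folate metabolism (-0.61 in KO and -0.52 in WT livers), the proapoptotic *Bbc3* (-0.40 in KO and -0.42 in WT livers) and the asparaginyl-tRNA synthetase *Nars* (-0.31 in KO and -0.35 in WT livers). Of 13 measured genes linked to CREBH, 2 rose and 1 fell in each genotype, near the shares of all genes. These were *Pck1*, the gluconeogenic enzyme (1.42 in KO and 1.26 in WT livers), *Fbxo21* (0.94 in KO and 0.48 in WT livers) and the acute phase gene *Apcs* (-1.13 in KO and -1.07 in WT livers). In WT livers 2 fell when KO mouse 76 or 143 or WT mouse 145 at 0 h, or WT mouse 168 or 169 at 12 h, was left out. No gene of these lists passed for genotype.

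**Figure D4:**
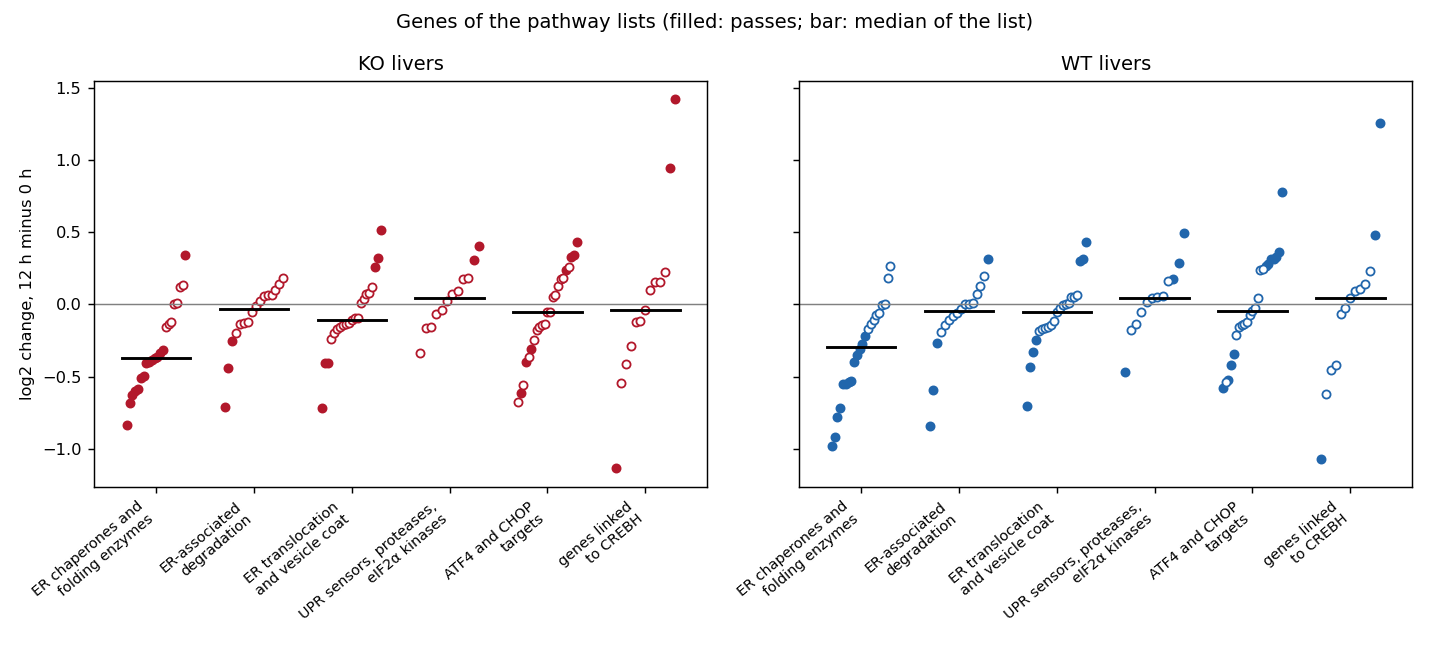
Log2 change between 12 h and 0 h (vertical axis) of the measured genes of 6 lists, ordered by value within a list, in KO livers (left) and WT livers (right). Filled points had an adjusted p under 0.05 in limma and bars give the list medians, which are lowest for the ER chaperones and folding enzymes (-0.37 in KO and -0.29 in WT livers).

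Of 37 genes with ERSE in a promoter window, a search made after the time changes were seen, 20 were measured, and 7 of these fell in livers of both genotypes (35%, against 6.71% of all genes), while 0 rose. They were *Hspa5*, the 5 chaperone or folding genes *Calr*, *Creld2*, *Ero1b*, *Hsp90b1* and *Pdia6*, and *Syvn1*. All 7 are described above among the members and lists, so that this count adds no further gene. In each genotype 13 of the 20 did not pass, among them the ER genes *Canx* and *Derl3*. The median change of the 20 genes was -0.15 in KO and -0.13 in WT livers, and that of all genes was -0.03 in each. Of 9 measured genes with ERSE-II, 2 fell and 1 rose in KO livers, and 3 fell and 0 rose in WT livers. *Dnajb11* and *Lgalsl* fell in both genotypes (22.2%, against 6.71% of all genes), and *Herpud1* was the 1 that rose in KO livers. *Rnf151* passed in WT livers only, with -0.31 (adjusted p = 0.0295 in limma), and had -0.23 (adjusted p = 0.127) in KO livers. These shares rest on few genes. A match describes letters in a window and not a site in use. Shown are only sites of genes that fell in both genotypes and that of *Herpud1*. Without sites of the other genes, the bases between the fixed letters cannot be tied to the fall. The fixed letters are in capitals, and each site is read 5′ to 3′ with CCAAT or ATTGG first.
Hspa5 ERSE, chr2:34772025-34772043: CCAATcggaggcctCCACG
Calr ERSE, chr8:84847075-84847093: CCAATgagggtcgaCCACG
Creld2 ERSE, chr15:88819520-88819538: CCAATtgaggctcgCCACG
Ero1b ERSE, chr13:12565682-12565700: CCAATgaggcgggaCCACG
Hsp90b1 ERSE nearer to the start, chr10:86705533-86705551: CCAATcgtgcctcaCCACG
Hsp90b1 ERSE farther from the start, chr10:86705638-86705656: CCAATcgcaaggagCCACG
Pdia6 ERSE, chr12:17266491-17266509: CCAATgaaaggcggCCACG
Syvn1 ERSE, chr19:6046532-6046550: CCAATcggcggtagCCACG
Herpud1 ERSE-II, chr8:94386377-94386387: ATTGGgCCACG
Dnajb11 ERSE-II, chr16:22857852-22857862: ATTGGcCCACG
Lgalsl ERSE-II, chr11:20831307-20831317: ATTGGaCCACG
The ERSE sites lay between -212 and -26 from the start, on the strand of the gene for *Hspa5*, *Pdia6*, *Syvn1* and the farther site of *Hsp90b1*, and on the opposite strand for the others.

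Markers of cell types were set beside the time changes. The shares of all genes were 10.9% higher and 10.6% lower in KO livers, and 14.0% higher and 14.7% lower in WT livers. Of 11 measured markers of pancreatic acinar cells, 1 passed, *Cela1*, which fell by 0.46 in KO and by 0.46 in WT livers. Their mean level at 12 h lay between 6.43 and 6.64 in KO and between 6.42 and 6.60 in WT livers. At 0 h it lay between 6.53 and 6.75 in KO and between 6.61 and 6.72 in WT livers. The times did not overlap in WT livers, but all these means lie below every array median, and the 12 h arrays had the lower medians. How far these probe sets stood above background is not known. Of 9 measured markers of B and plasma cells, 0 passed in KO livers, and 1 rose and 1 fell in WT livers. Among 9 markers of Kupffer cells and macrophages, 1 rose and 2 fell in KO livers and 1 rose and 5 fell in WT livers. The shares that fell were larger than those of all genes, above all in WT livers. The mean level of the 9 markers overlapped between the times in both genotypes. Of 10 sinusoidal endothelial markers, 1 rose and 2 fell in KO and 2 rose and 1 fell in WT livers. Of 10 stellate cell markers, 0 rose and 1 fell in KO and 2 rose and 1 fell in WT livers. Of 9 neutrophil markers, 0 passed in either genotype. Of 7 measured cholangiocyte markers 1, *Sox9*, fell in each genotype. Their mean level at 12 h was 6.78 to 6.93 in KO and 6.76 to 6.97 in WT livers. It lay below that at 0 h (6.95 to 7.10 in KO and 6.94 to 7.23 in WT livers), with an overlap in WT livers. These means too are low on the scale, near or below the array medians. Of 9 hepatocyte markers, 1 rose in KO and 2 rose in WT livers and 0 fell in either. The part of these cells in the changes of the members was not tested.

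Within groups, members varied together only in part, and of their 45 pairs 14 had an r below 0. Over 20 arrays, as deviations from the 4 group means, which share the normalization of their arrays, the 4 highest of these pairs were *Atf4* and *Ddit3* (Pearson r 0.61), *Creb3l2* and *Dnajb9* (0.54), *Creb3l3* and *Xbp1* (0.53), and *Atf4* and *Hspa5* (0.49). The 2 lowest were *Creb3l3* and *Atf4* (-0.46) and *Atf6* and *Hspa5* (-0.36), and *Hspa5* and *Herpud1* had 0.15. The genes most like *Hspa5* by this measure were *Myo9a* (0.86), *Tmem214* (0.85) and *Manf* (0.85). *Dnajb9* was most like *Tmem39a* (0.93), *Txndc11* (0.87) and *Clec12a* (0.87). The genes nearest to *Atf4* were *Nelfe* (0.78), *Wfs1* (0.76) and *Pkp3* (0.74). For *Ddit3* they were *Pdx1* (0.79), *Fhad1* (0.78) and *Csn1s1* (0.76), and for *Herpud1* they were *Mknk1* (0.80), *Fryl* (0.79) and *Fbxo42* (0.78). *Xbp1* was nearest to *Igfbp2*, *Enkd1* and *Lce3e* (0.80 each), and *Atf6* to *Nhsl1* (0.82), *Prr14* (0.82) and *Sbds* (0.77). In the CREB3 family, *Creb3* was nearest to *Prpf4* (0.90), *Map3k5* (0.80) and *Atxn7l3* (0.79), *Creb3l2* to *Olfr1000* (0.79), *Cbr3* (0.74) and *H3c7* (0.73), and *Creb3l3* to *Gna12* (0.83), *H2-T24* (0.81) and *Fam234a* (0.80). These r are the highest among the probe sets of all other genes and are given as a description.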

How the data were processed

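Total liver RNA was hybridized to Affymetrix GeneChip Mouse Gene 1.0 ST arrays. The authors deposited log2 values per probe set, normalized by RMA (version not given in the sources used here), so each value is background-corrected and normalized, and how far a probe set stood above background is not known. Of 35557 probe sets, 9868 without values were left out and 25689 entered 1 linear model (limma 3.58.1, R 4.3.3) of 4 group means over 20 arrays without covariates, with moderated variances. Gene names came from the platform annotation, updated through RefSeq (0 symbols changed). Probe sets of several genes (232) or none (4680) were tested but not named. For lists, the brightest probe set stood for a gene. The rule for named genes admitted all members, up to 3 genes per list and direction that passed in both genotypes, and the 3 genes most like each member. All other genes named, among them the 10 further chaperones that fell, were named after their values were seen. Members, lists and rule were chosen with earlier results of these data known. The fit was tested on simulated data first. Per-sample columns not used numbered 0. Alternatives were batch as a block, only the arrays compared, bright probe sets, quantile normalization, centring, an intensity trend, array weights, leaving out WT mice 80 and 170, and leaving out each array.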

Additional observations from a re-analysis of the deposited data

Results flagged for a closer look

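In 6 of 40 groups of 5 values (10 members in 4 groups), 1 mouse stood apart from the other 4 of its group, where chance gives about 1 in 20 groups, or 2 of 40 on average. *Dnajb9* was 10.19 in KO mouse 144 at 0 h, against 10.99 to 11.31 in the others. *Herpud1* was 12.86 in WT mouse 170 at 12 h, against 12.57 to 12.64. *Xbp1* was 11.28 in WT mouse 146 at 0 h, against 11.57 to 11.68. WT mouse 111 at 12 h was apart for *Creb3l2* (8.55, against 8.16 to 8.26) and for *Creb3l3* (11.24, against 11.09 to 11.13). *Creb3* was 10.54 in WT mouse 78 at 0 h, against 10.40 to 10.44.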

How the results depend on the processing

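*Hspa5*, *Ddit3* and *Atf4* in both genotypes and *Herpud1* in KO livers passed for time in each of the 28 alternatives that were run. Among these, leaving out an array outside the groups compared cannot move a log2 change, only its error, so that such runs are a weak check. The changes ranged from -0.44 to -0.31 in KO and from -0.49 to -0.32 in WT livers for *Atf4*. The 3 members called for time in WT livers became 5 with each array centred on its median, where *Atf6* (0.35, adjusted p = 0.0325 in limma) and *Herpud1* (0.32, adjusted p = 0.048) also passed. Leaving out 1 array gave 3 to 5 members called in WT livers. The 5 came without WT mouse 78 at 0 h, where the same 2 genes passed (*Atf6* 0.35, adjusted p = 0.0289, and *Herpud1* 0.31, adjusted p = 0.0408), and 4 without WT mouse 146 at 0 h, where *Xbp1* passed (-0.24, adjusted p = 0.0341). Of 1660 values of members under alternatives, 1655 stayed on their side of the threshold and 5 newly passed, and 85 values that had not passed changed sign. The cause was not tested. Batch as a random block (correlation 0.0286) hardly changed the fit, and since all 12 h arrays are in batch 5 it does not separate time from batch. The chaperones that fell numbered 13 to 15 in KO and 12 to 14 in WT livers, in runs chosen after the data were seen. No paired analysis was possible because each mouse gave 1 array and no mouse number occurs in more than 1 group. With 5 arrays per group, precision is limited by their number.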
